A study of Mus musculus with 4 samples.

Results

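The interferon-stimulated effector genes examined here were a list of 38 genes by name, whose rule uses no measured value. All 38 were located by symbol in the RefSeq gene table of GRCm38.p6, the assembly behind mm10, and they were set against its 21887 protein-coding genes. Of the 38, 37 were protein-coding there and 1, Mx2, was listed as a transcribed pseudogene. A locus was the span of a gene plus 10 kb on each side. An edge peak was a peak within 1 kb of either end of the span.

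Open chromatin was measured with ATAC-seq, where a Tn5 enzyme inserts adapters into accessible DNA, in 50000 bone marrow-derived macrophages per library. The cells came from C57BL/6 mice and had been grown for 5 days with 10% M-CSF. The groups were Slc6a8-/y macrophages (KO) given IL-4 at 10 ng/mL for 6 h, KO macrophages left untreated, wild-type macrophages (WT) given the same IL-4, and WT macrophages left untreated. Slc6a8, an X-linked gene, encodes the creatine transporter, and the study looked at open chromatin during polarization without creatine. Slc6a8 had 0 locus peaks in each of the 4 libraries, so these files do not check the genotype labels. Each group held 1 library from a number of mice not given in the sources used here, and no difference could be set against replicate error. No test was therefore made, and every statement is about these 4 libraries. In such bulk libraries, fewer cells with an open region and less opening per cell cannot be told apart.

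Interferons bind receptors whose JAK kinases activate STAT proteins. Type I interferons lead to a complex that holds STAT2 and IRF9 and binds the interferon-stimulated response element (ISRE), and interferon-gamma leads to binding at the gamma-activated site (GAS). The target genes encode proteins that sense foreign nucleic acid, block virus entry, translation or release, attack the vacuoles of intracellular microbes and load peptides for T cells. Resting macrophages keep part of this program in a low, tonic state, while IL-4 signals through STAT6 to the alternative program.

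The lists held 10443 peaks in KO IL-4, 13714 in KO untreated, 9930 in WT IL-4 and 17339 in WT untreated. Each peak has a score, the authors' value, which ranks peaks only within its own list and started at about 50 in each. The read depth, on which peak number depends, was not given in the sources used here. Results are therefore given for all peaks and again at equal list lengths, that is for the 9930 highest-scoring peaks of each list. Equal length left out WT untreated peaks with scores below 89.57, KO untreated peaks below 67.78 and KO IL-4 peaks below 52.2. Of 10 macrophage marker genes, 6 had a locus peak in KO IL-4, 8 in KO untreated, 8 in WT IL-4 and 10 in WT untreated. Of all protein-coding genes 44.1%, 51.6%, 43.3% and 56.0% had one. The 4 mast cell and 4 fibroblast markers had none in any library. Of the 8 neutrophil markers, 1 had a locus peak in each WT library and 0 in each KO library. Of the 7 dendritic cell markers, 4 to 6 had one, and of the 5 B cell, 5 T cell and 3 erythroid markers 1 to 3, 2 and 1. At equal list lengths the macrophage counts were 6, 7, 8 and 4 of 10 in the same order of libraries. Of all genes 43.0%, 44.7%, 43.3% and 44.1% had a locus peak there. The part of other cells in the results was not tested.

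The stretches of 250 bases before the transcription start of 8 of the genes are shown first, because they cover the patterns met in the data. Igtp and Irgm2 had a peak there in WT untreated alone, Gbp7 in all 4 libraries, Ifit2 and Ifit3 in all but WT IL-4, and Rsad2 in KO untreated alone. Ifit1 and Isg15 had none there in any library. Sequences are from RefSeq, build GRCm38.p6, 5' to 3' on the strand of the gene, and capitals mark the ISRE core GAAANNGAAA on either strand, of which Ifit2 holds none.
Igtp (chr11:58199306-58199555, + strand): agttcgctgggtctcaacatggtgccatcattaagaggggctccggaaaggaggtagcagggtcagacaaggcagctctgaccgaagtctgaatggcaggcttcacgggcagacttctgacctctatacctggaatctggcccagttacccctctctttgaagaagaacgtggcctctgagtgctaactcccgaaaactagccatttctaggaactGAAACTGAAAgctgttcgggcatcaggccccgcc
Irgm2 (chr11:58214727-58214976, + strand): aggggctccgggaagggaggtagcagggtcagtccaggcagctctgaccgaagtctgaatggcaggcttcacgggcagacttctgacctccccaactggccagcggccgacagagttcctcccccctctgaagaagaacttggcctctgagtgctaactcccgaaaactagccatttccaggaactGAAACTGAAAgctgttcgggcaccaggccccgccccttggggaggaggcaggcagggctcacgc
Gbp7 (chr3:142530086-142530335, + strand): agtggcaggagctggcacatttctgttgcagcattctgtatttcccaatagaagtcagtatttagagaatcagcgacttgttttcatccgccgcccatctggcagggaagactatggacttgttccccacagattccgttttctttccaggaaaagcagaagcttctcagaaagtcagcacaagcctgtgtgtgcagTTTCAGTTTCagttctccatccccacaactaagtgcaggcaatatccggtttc
Ifit1 (chr19:34640639-34640888, + strand): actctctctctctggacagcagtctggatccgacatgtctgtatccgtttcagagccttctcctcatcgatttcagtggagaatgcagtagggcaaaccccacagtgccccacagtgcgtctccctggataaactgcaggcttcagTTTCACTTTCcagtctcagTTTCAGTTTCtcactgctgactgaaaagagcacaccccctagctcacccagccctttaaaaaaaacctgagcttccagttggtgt
Ifit2 (chr19:34550444-34550693, + strand): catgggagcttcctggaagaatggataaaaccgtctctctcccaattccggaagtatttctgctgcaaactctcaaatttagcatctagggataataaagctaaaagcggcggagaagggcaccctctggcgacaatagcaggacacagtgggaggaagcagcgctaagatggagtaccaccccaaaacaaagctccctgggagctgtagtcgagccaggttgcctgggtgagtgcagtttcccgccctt
Ifit3 (chr19:34583279-34583528, + strand): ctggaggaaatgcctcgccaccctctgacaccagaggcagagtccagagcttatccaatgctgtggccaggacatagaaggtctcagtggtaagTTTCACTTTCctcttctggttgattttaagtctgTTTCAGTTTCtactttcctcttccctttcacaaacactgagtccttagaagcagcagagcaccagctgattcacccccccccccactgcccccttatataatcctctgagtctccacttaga
Isg15 (chr4:156200819-156201068, - strand): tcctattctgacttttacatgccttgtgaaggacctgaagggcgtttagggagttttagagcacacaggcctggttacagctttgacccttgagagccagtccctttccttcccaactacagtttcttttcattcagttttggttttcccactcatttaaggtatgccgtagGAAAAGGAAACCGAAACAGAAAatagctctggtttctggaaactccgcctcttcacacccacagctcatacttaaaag
Rsad2 (chr12:26456453-26456702, - strand): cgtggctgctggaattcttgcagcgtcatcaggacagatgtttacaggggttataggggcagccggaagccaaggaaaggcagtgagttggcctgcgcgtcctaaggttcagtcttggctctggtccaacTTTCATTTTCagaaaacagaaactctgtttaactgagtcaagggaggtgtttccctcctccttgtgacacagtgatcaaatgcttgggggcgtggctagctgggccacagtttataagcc

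The ISRE core was far more common in these promoters than in promoters at large. In the 300 bases from 250 before to 50 after the start, on either strand, it was found in 18 of the 29 genes with a promoter in the table (62.1%), against 689 of all 17492 protein-coding genes with one (3.94%). The GAS letters TTCNNNGAA were in 10 of 29 (34.5%) against 8.92% of all genes, and the STAT6 letters TTCNNNNGAA in 4 of 29 (13.8%) against 7.37%. AP-1 letters TGANTCA were in 8 of 29 (27.6%) against 8.12%, and GAGGAAG, a form of the PU.1 site, in 4 of 29 (13.8%) against 15.5%. Some ISRE core matches overlap each other, and a match is a run of letters, not a shown binding site. In Isg15 3 overlapping matches began 78, 72 and 66 bases before the start. Igtp and Irgm2 shared a run of 55 identical bases, the longest of the 406 pairs of promoters compared, and the next longest run was 14 bases. Reads that lie wholly within such an identical stretch are hard to place, and their treatment by the authors was not given in the sources used here. Its bearing on the Igtp and Irgm2 peaks was not tested.

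With all peaks, more of the effector genes had an edge peak in the untreated libraries than in the IL-4 libraries, and at equal list lengths they did not. An edge peak was found at 12 of 38 genes in KO IL-4 (31.6%, interval 17.5 to 48.7), 18 in KO untreated (47.4%, 31.0 to 64.2), 10 in WT IL-4 (26.3%, 13.4 to 43.1) and 22 in WT untreated (57.9%, 40.8 to 73.7). Of all protein-coding genes, 29.0%, 34.8%, 28.4% and 38.2% had one in the same libraries. Intervals are Clopper-Pearson at 95% and hold counting error alone. Only the interval of WT untreated lay above the share of all genes. With lists of equal length the counts were 12, 12, 10 and 6 of 38, against 28.3%, 29.9%, 28.4% and 29.3% of all genes, so WT untreated had the fewest there (15.8%, 6.02 to 31.3). A locus peak was found at 18 genes in KO IL-4, 25 in KO untreated, 15 in WT IL-4 and 29 in WT untreated (47.4%, 65.8%, 39.5% and 76.3%), against 44.1%, 51.6%, 43.3% and 56.0% of all genes, and 8 genes had none in any library. With equal lengths these counts were 18, 20, 15 and 11, so WT untreated again had the fewest. They were 47.4%, 52.6%, 39.5% and 28.9% of the set, against 43.0%, 44.7%, 43.3% and 44.1% of all genes.

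**Figure D1:**
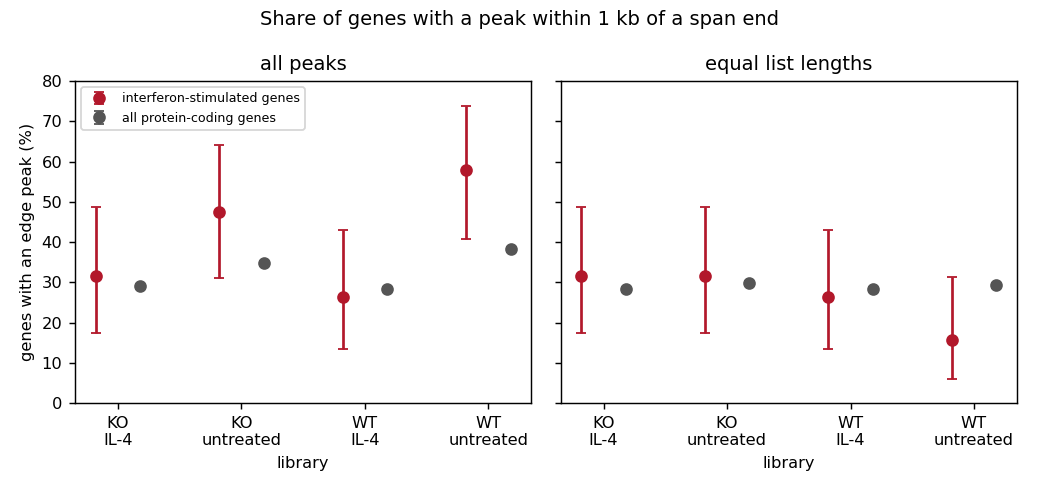
Share of genes with an edge peak (vertical axis, %) in each library, for the 38 interferon-stimulated genes and all protein-coding genes, with all peaks (left) and at equal list lengths (right). Bars are exact 95% intervals for counting error. With all peaks WT untreated stands highest at 57.9%, and at equal lengths it stands lowest at 15.8%.

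The edge peaks of the effector genes ranked low within their lists. The median score of the highest edge peak per gene was 76.1 in KO IL-4, 78.0 in KO untreated, 68.7 in WT IL-4 and 66.7 in WT untreated. For all protein-coding genes with an edge peak it was 106, 131, 105 and 151. In WT untreated the median effector gene peak stood at percentile 22.3 of the list, against 70.6 for all genes, and 13 of the 22 genes (59.1%) had a highest edge peak below 75, against 15.4% of all genes. In WT untreated the cut for equal lengths fell between Trim25 (88.57, left out) and Ifit2 (106, kept).

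**Figure D2:**
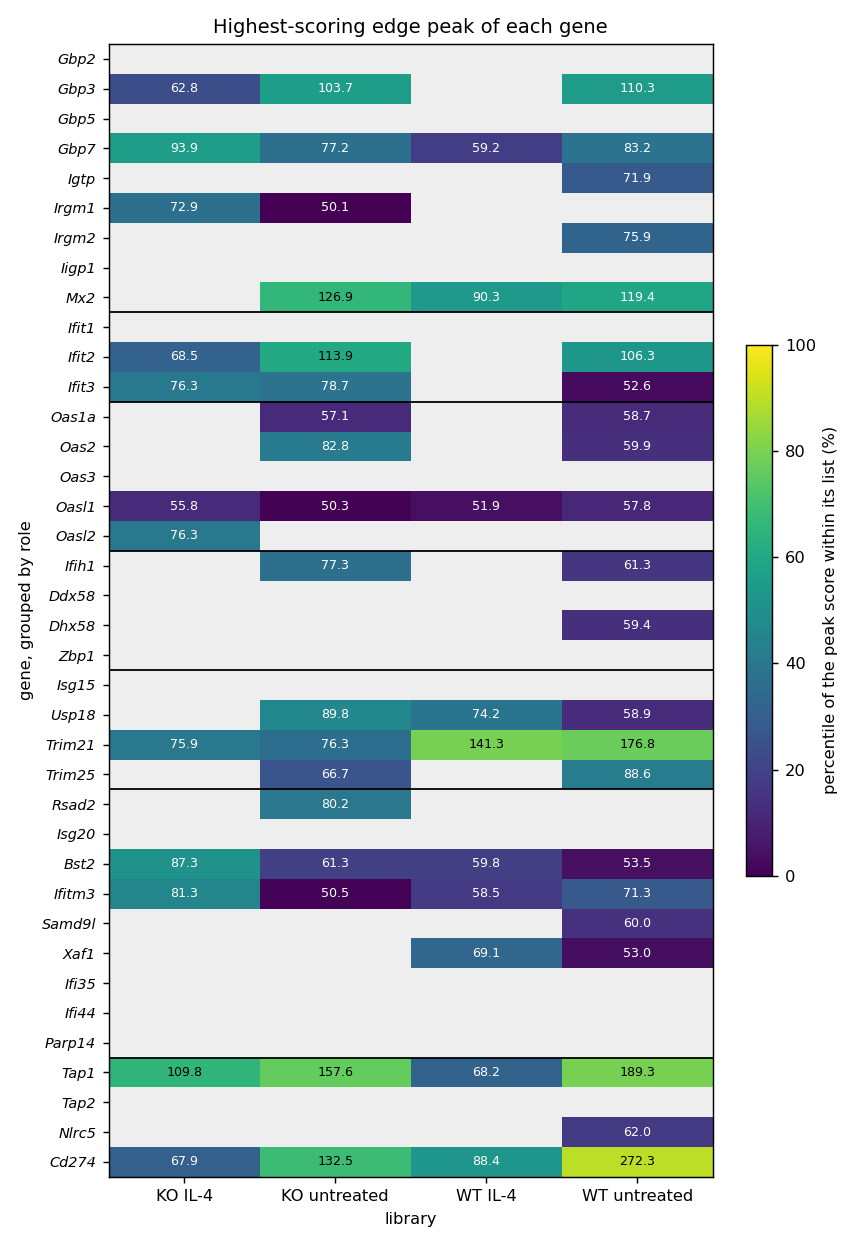
Highest-scoring edge peak of each of the 38 genes (rows, grouped by role) in the 4 libraries (columns). Numbers are the authors' peak scores, colour is the percentile of that score within its own list, and grey means no edge peak. The 7 genes filled in all 4 columns are Gbp7, Oasl1, Trim21, Bst2, Ifitm3, Tap1 and Cd274, and 13 rows are empty.

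Among the immunity GTPases, whose guanylate-binding and immunity-related families attack the vacuoles that shelter microbes, the pattern differed from gene to gene. Gbp7, a guanylate-binding protein gene, had a peak over its start in every library, with scores of 93.9 in KO IL-4, 77.2 in KO untreated, 59.2 in WT IL-4 and 83.2 in WT untreated (chr3:142530051-142530557). That region was also the only peak in the locus of its neighbour Gbp5. Gbp3 had an edge peak of 62.8 in KO IL-4, 104 in KO untreated and 110.3 in WT untreated, and none in WT IL-4. Its merged region, chr3:142560288-142560922, was centred 249 bases after the nearer of its 2 listed starts, and its 2 ISRE core matches, before the other start, lay outside every peak. WT IL-4 thus stood apart from the other 3 libraries at Gbp3, at equal list lengths too.

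The immunity-related GTPases of the Irg family gave peaks in fewer libraries. Igtp (71.9, chr11:58199335-58199722) and Irgm2 (75.9, chr11:58214701-58215194) had a start peak in WT untreated and no locus peak in any other library, and both were left out at equal lengths. These neighbours are the pair whose promoters share the 55-base run. Irgm1, a regulator of the effector GTPases, had edge peaks in the KO libraries only, but at different places. KO untreated had a peak of 50.1 over the start and KO IL-4 a peak of 72.9 centred at -1006 bp from it, with no overlap between them. Gbp2 and Iigp1 had no locus peak in any library. Mx2, the pseudogene, had an edge peak of 127 in KO untreated, 90.3 in WT IL-4 and 119 in WT untreated, and none in KO IL-4.

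The IFIT genes, whose proteins bind viral RNA and block its translation, had peaks in every library but WT IL-4. At Ifit2 the start peak scored 68.5 in KO IL-4, 114 in KO untreated and 106 in WT untreated (chr19:34550436-34550934). At Ifit3 it scored 76.3 in KO IL-4, 78.7 in KO untreated and 52.6 in WT untreated (chr19:34583097-34583691), a region that covered both ISRE core matches shown above. The nearest peak to either gene's ends in WT IL-4 lay 22696 bp from Ifit2 and 55265 bp from Ifit3. Ifit1, a further member of the same cluster with 2 ISRE core matches, had no locus peak in any library. With equal list lengths Ifit2 still differed between WT IL-4 and the other 3 libraries, and the WT untreated peak of Ifit3 (percentile 3.04 of its list) was left out.

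The OAS genes encode or resemble synthetases of the oligoadenylates that activate RNase L, which degrades viral RNA. Oas2 had an edge peak of 82.8 in KO untreated and 59.9 in WT untreated and none with IL-4 in either genotype (chr5:120749590-120750222). Oas1a likewise had edge peaks in the untreated libraries only, 57.1 in KO and 58.7 in WT, but the KO peak lay 508 bases after the start and the WT peak over it, with no overlap. Oas3 had no edge peak but a region inside its span in all 4 libraries, with scores of 57.9 in KO IL-4, 119 in KO untreated, 83.8 in WT IL-4 and 148 in WT untreated. Oasl1 had a low edge peak in every library, with scores of 55.8, 50.3, 51.9 and 57.8 in that order of libraries. Oasl2 had an edge peak in KO IL-4 alone (76.3, chr5:114897215-114897647), centred 497 bases after its start.

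No sensor of foreign nucleic acid, among Ifih1, Ddx58, Dhx58 and Zbp1, had an edge peak in KO IL-4 or WT IL-4. Of all genes 29.0% and 28.4% had one there, and with 4 genes a count of 0 cannot be told apart from these shares. At equal list lengths 0 of the 4 had one in KO IL-4, 1 in KO untreated, 0 in WT IL-4 and 0 in WT untreated. Ifih1, which encodes MDA5, had a start peak of 77.3 in KO untreated and 61.3 in WT untreated (chr2:62645981-62646475). Dhx58, which encodes LGP2, had an edge peak of 59.4 in WT untreated, a region it shares with the edge of Kat2a. Inside the Dhx58 span both KO libraries had a peak, with a score of 69.4 under IL-4 and 57.6 untreated, that both WT libraries lacked. Ddx58, which encodes RIG-I, had 1 locus peak, in WT untreated (64.1), and Zbp1 had none.

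In the ISG15 system, Isg15, the gene of the ubiquitin-like modifier, had no edge peak. Its nearest peak ended 1077 bp from the span in KO IL-4, 1091 bp in KO untreated and 1073 bp in WT untreated, just outside the 1 kb limit and at the edge of Agrn, and WT IL-4 had none in the locus. Usp18, which encodes the protease that removes ISG15 and restrains interferon receptor signalling, had an edge peak of 89.8 in KO untreated, 74.2 in WT IL-4 and 58.9 in WT untreated. In KO IL-4 the nearest peak lay 67278 bp from its ends. Trim25, an E3 ligase gene of the RIG-I pathway, had a start peak in the untreated libraries only (66.7 in KO, 88.6 in WT). Trim21, the gene of a cytosolic antibody receptor, had a start peak in all 4, with scores of 75.9, 76.3, 141 and 177 in KO IL-4, KO untreated, WT IL-4 and WT untreated.

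Of the 9 other antiviral effectors, Bst2 and Ifitm3 had an edge peak in all 4 libraries, Rsad2, Samd9l and Xaf1 in some, and the other 4 in none. Bst2 (tetherin, which holds budding virions at the membrane) had a start peak of 87.3 in KO IL-4, 61.3 in KO untreated, 59.8 in WT IL-4 and 53.5 in WT untreated. Ifitm3, which blocks fusion of virus with the endosome, had an edge peak in all 4 libraries (50.5 to 81.3). That region was centred 1533 bases after its start, past the far end of its span of 1155 bp. A peak over the Ifitm3 start was found in WT untreated alone (51.2). Rsad2, which encodes viperin, had a start peak in KO untreated alone (80.2, chr12:26456329-26456819) and at equal list lengths too. Xaf1, a gene of cell death signalling, had one in the WT libraries alone (69.1 with IL-4 and 53.0 untreated), and Samd9l in WT untreated alone (59.99). Isg20, Ifi44 and Parp14 had no locus peak in any library. The peaks in the Ifi35 locus, up to 252 in WT untreated, lay at the edges of Rpl27, Vat1 and Rnd2, not of Ifi35.

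Of the antigen presentation and checkpoint genes, Tap1 and Cd274 had the highest edge scores of the list in both untreated libraries. Tap1, which encodes a subunit of the transporter that feeds peptides to MHC class I, had a start peak in every library, with scores of 109.8 in KO IL-4, 158 in KO untreated, 68.2 in WT IL-4 and 189 in WT untreated. The region (chr17:34187194-34187919) is also the edge of Psmb9, an immunoproteasome gene. Cd274, which encodes PD-L1, had a peak at the left end of its span in all 4 libraries, with scores of 67.9, 132, 88.4 and 272 in the same order of libraries. That region, chr19:29361576-29362188, was centred at -5556 bp from the start that the promoter table gives. Nlrc5, the transactivator of MHC class I genes, had an edge peak in WT untreated alone (62.0) and Tap2 had no locus peak. Within each of the untreated lists the 5 genes with the highest locus scores were Cd274, Ifi35, Bst2, Tap1 and Trim25. The Bst2 peak (201 in KO and 187 in WT) lay at the edge of Mvb12a, and the Trim25 peak (147 in KO and 188 in WT) in the flank after the gene.

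**Figure D3:**
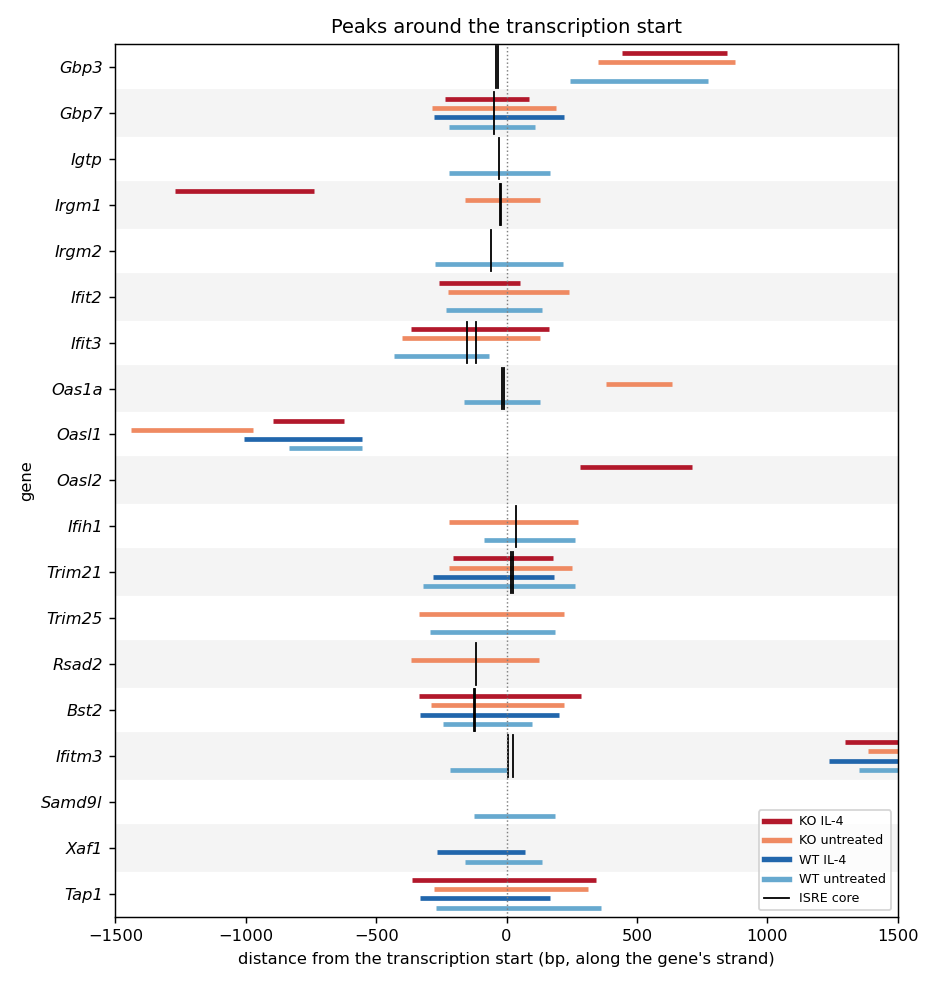
Peaks of each library (coloured bars) within 1500 bp of the transcription start (dotted line) for the 19 genes that have a start in the promoter table and a peak in that window, along the gene's strand (horizontal axis, bp). Black ticks are ISRE core matches. Most bars span the start, and every bar of Gbp3, Oasl1 and Oasl2 lies to one side. A WT IL-4 bar is present only at Gbp7, Oasl1, Trim21, Bst2, Ifitm3, Xaf1 and Tap1. Ifit2, Ifit3 and Gbp3 have a bar from every library but WT IL-4.

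Over the loci as a whole, the 4 libraries gave 50 merged regions, of which 29 lay at the edge of an effector gene, 4 inside a span, 9 at the edge of another gene only and 8 elsewhere in the flanks. All 4 libraries had a peak in 12 of them, and 22 were found in 1 library, 14 of these in WT untreated. WT untreated also had the longest list, with 17339 peaks. Merged regions were not counted for all genes, so these counts have no background to be set against. Of the 28 ISRE core matches, 7 lay inside a peak in KO IL-4, 11 in KO untreated, 5 in WT IL-4 and 12 in WT untreated, and 15 in any library. Those inside a peak in WT IL-4 belonged to Bst2, Gbp7 and Trim21. Counted by gene, 4, 8, 3 and 10 of the 18 with an ISRE core had a peak over a promoter. The libraries are KO IL-4, KO untreated, WT IL-4 and WT untreated in that order. Of the genes without an ISRE core it was 2, 3, 2 and 5 of 11. Gbp3 is among the 8 and the 10 only through the promoter of its other start, which holds no ISRE core. The peak there scored 104 in KO untreated and 110.3 in WT untreated. Over all protein-coding genes, counted in the same way, the share was lower with an ISRE core than without in each library. It was 23.5% against 29.5% in KO IL-4 and 34.7% against 38.5% in WT untreated.

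The first comparison set IL-4 against no treatment in KO macrophages. Of the 38 genes, 7 had an edge peak in KO untreated and not in KO IL-4 (lost), which are Mx2, Oas1a, Oas2, Ifih1, Usp18, Trim25 and Rsad2, and 1, Oasl2, was gained. Of all genes 7.90% were lost and 2.10% gained. The lost genes were 18.4% of the set and 38.9% of its genes with a KO untreated edge peak, against 22.7% for all genes. By score of the KO untreated peak, 2 of 6 genes below 75, 4 of 7 from 75 to 100 and 1 of 5 from 100 up were lost, against 59.2%, 41.5% and 7.67% of all genes. KO IL-4 had 19 locus peaks, against 32 for KO untreated, a log2 ratio of -0.74 (-1.65 to 0.11), and over all genes it was -0.38. No KO untreated peak overlapped 3 of the 19 (15.8%, against 15.6% of the locus peaks of all genes), and no KO IL-4 peak overlapped 16 of the 32 (50.0%, against 35.6%). At equal list lengths, 5 were lost, Mx2, Oas2, Ifih1, Usp18 and Rsad2 (5.23% of all genes), and 5 gained (3.71%), 4 of them genes that the whole KO untreated list covers.

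In WT macrophages, IL-4 against no treatment gave the most genes with a changed edge state of the 4 comparisons with all peaks (12, against 8 in each of the others), but not at equal list lengths (8, against 10 in KO). It sets the shortest list, 9930 peaks, against the longest, 17339. Among all genes it also had the largest share lost with all peaks, 11.0%, against 7.90%, 5.78% and 4.43% in the others. Its share gained, 1.17%, was the smallest, against 2.10%, 2.40% and 5.09%. Lost edge peaks numbered 12, at Gbp3, Igtp, Irgm2, Ifit2, Ifit3, Oas1a, Oas2, Ifih1, Dhx58, Trim25, Samd9l and Nlrc5, and 0 were gained, against 11.0% lost and 1.17% gained among all genes. The lost genes were 31.6% of the set and 54.5% of its genes with a WT untreated edge peak, against 28.8% for all genes. By score of the WT untreated peak, 8 of 13 effector genes below 75, 2 of 3 from 75 to 100 and 2 of 6 from 100 up were lost. Of all genes 73.0%, 58.3% and 13.8% were lost in these ranges. The part of peak score in the losses was not tested. None of the lost edge peaks was overlapped by a WT IL-4 peak. Locus peaks numbered 17 in WT IL-4 and 41 in WT untreated, a log2 ratio of -1.25 (-2.18 to -0.42), against -0.75 over all genes. No WT untreated peak overlapped 1 of the 17 (5.88%, against 9.06% for all genes), and no WT IL-4 peak overlapped 25 of the 41 (61.0%, against 45.1%). With equal lengths Gbp3 and Ifit2 alone were lost, 5.26% of the set against 4.94% of all genes, which is near the background. Another 6 counted as gained there (3.96% of all genes), and the whole WT untreated list covers all 6.

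**Figure D4:**
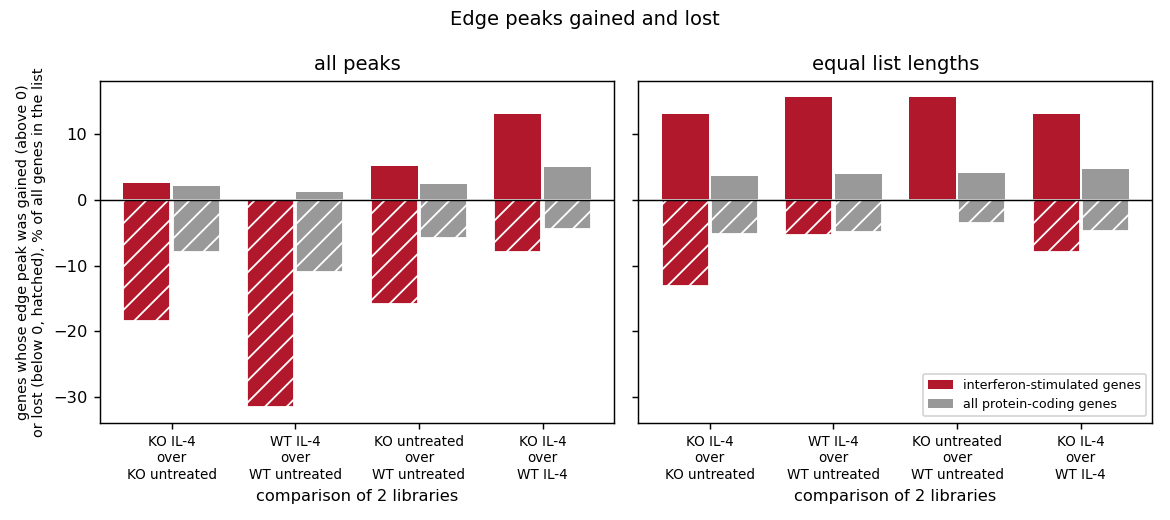
Genes whose edge peak was gained (bars above 0) or lost (hatched bars below 0), as % of the genes in the list (vertical axis), in the 4 comparisons of 2 libraries, with all peaks (left) and at equal list lengths (right). Of the 38 interferon-stimulated genes 31.6% were lost in WT IL-4 over WT untreated with all peaks and 5.26% at equal lengths.

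Between the untreated libraries, KO against WT, edge peaks were lost at 6 genes, Igtp, Irgm2, Dhx58, Samd9l, Xaf1 and Nlrc5, and gained at Irgm1 and Rsad2, against 5.78% lost and 2.40% gained among all genes. Every lost peak scored 75.9 or less in WT untreated. By that score, 5 of 13 genes below 75, 1 of 3 from 75 to 100 and 0 of 6 from 100 up were lost. Of all genes 50.3%, 31.9% and 4.44% were lost in these ranges. Locus peaks numbered 32 in KO and 41 in WT, a log2 ratio of -0.35 (-1.07 to 0.34), close to the -0.30 of all genes. Peaks without overlap in the other library were 7 of the 32 in KO (21.9%, against 14.0% for all genes) and 16 of the 41 in WT (39.0%, against 29.1%). At equal list lengths the direction turned, with 21 locus peaks in KO and 11 in WT (0.90, -0.18 to 2.13, against 0.01 for all genes). Then 0 genes were lost (3.56% of all genes) and 6 were gained (4.08%), Gbp7, Ifit3, Oas2, Ifih1, Usp18 and Rsad2, of which the whole WT untreated list covers all but Rsad2.

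Between the IL-4 libraries, whose lists were of nearly equal length, KO had edge peaks that WT lacked at Gbp3, Irgm1, Ifit2, Ifit3 and Oasl2, and lacked those of Mx2, Usp18 and Xaf1. The 5 gained genes compare with 5.09% of all genes and the 3 lost with 4.43%. At equal list lengths the gained and lost genes were the same, against 4.70% and 4.72% of all genes. Locus peaks numbered 19 in KO and 17 in WT (log2 ratio 0.16, -0.86 to 1.19, and 0.07 over all genes). Those without overlap in the other library were 7 of the 19 in KO (36.8%, against 27.4% for all genes) and 5 of the 17 in WT (29.4%, against 24.2%). The scores of the 5 gained peaks in KO IL-4 ran from 62.8 to 76.3, percentiles 23.6 to 40.5 of that list. Of these genes Gbp3, Ifit2 and Ifit3 also had an edge peak in both untreated libraries, so WT IL-4 was the library that stood apart. That pattern, in all but WT IL-4, held for 3 of 38 genes (7.89%) and for 3.36% of all genes. Whether IL-4 acts differently in the genotypes at these genes was not tested, since each group is 1 library.

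The upstream genes of the pathway had edge peaks in larger shares than the effector genes in each library. Of 27 genes of interferon receptors, kinases, STATs, IRFs, sensors' adaptors and inhibitors, 15 had an edge peak in KO IL-4, 19 in KO untreated, 18 in WT IL-4 and 20 in WT untreated, and 13 had one in all 4 (48.1%). Of the 38 effector genes 7 had one in all 4 (18.4%), and of all genes 22.9%. The 13 included the receptor genes Ifnar1, Ifngr1 and Ifngr2, the kinases Jak1, Jak2 and Tyk2, and Stat2, Irf1 and Irf2. Irf9, which encodes the DNA-binding partner of STAT2, had one in KO untreated (93.3), WT IL-4 (90.2) and WT untreated (81.7) and none in KO IL-4. Socs3, a feedback inhibitor, had one in the untreated libraries only, with 76.5 in KO and 73.7 in WT, and Irf8 in WT untreated only (73.8). Irf7, Irf5 and Ifnb1 were among the 6 genes with none in any library. With IL-4 over untreated, 0 were gained and 4 lost in KO (Irf3, Irf9, Socs3 and Usp18). Usp18 belongs to both lists.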

How the data were processed

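Each of the 4 ATAC-seq libraries has 1 peak list, which gives positions and scores as the authors deposited them. The build mm10 and the tools MACS 1.4.2, Bowtie2 2.2.5 and HOMER come from the submitters' processing notes, with no parameters or roles. No header states the unit of the deposited score, and it was used only to rank and filter peaks within a list. Depth is unknown, and with it how precisely a peak can be called present or absent.

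The gene table holds spans without exons, so exons and introns were not separated. Promoters and strands came from the RefSeq table of GRCm38.p6, and 29 of the 38 genes matched. Mx2, Iigp1, Oas2, Usp18, Dhx58, Zbp1, Tap2, Parp14 and Nlrc5 did not. Peaks were assigned to loci and edges, each counted once, and 1 shared bp made peaks of different libraries count as overlapping. The log2 ratio of locus peaks had 0.5 added to each count, and its 95% interval is the exact Clopper-Pearson interval of the share of the 2 counts. No p-value was computed, because each group holds 1 library. Of the 27 pathway genes, 1 was matched by an older symbol. Some results on pathway genes are not reported here.

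The genes and lists were chosen with earlier results of these data known. Genes described in full are those whose edge state differs between libraries, the 5 with the highest locus score and those with a locus peak in 1 library. The alternatives were equal list lengths, scores of 100 or more, edges of 2.5 kb, loci of 50 kb or the span alone, the start of the gene alone, 50% reciprocal overlap and leaving out genes that share a peak. Leaving out Mx2 and the split by score were added after the data were seen. Motif letters were searched on both strands of the 300-base promoters. The calling of edge peaks was tested on the WT untreated list with edge peaks removed or planted, and against a second tool. The tools were Matplotlib 3.10.9, SciPy 1.17.1, pandas 2.3.3 and NumPy 2.4.6 under Python 3.11.15.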

Additional observations from a re-analysis of the deposited data

How the results depend on the processing

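No paired analysis was possible because each group holds 1 library. The cause of each difference below was not tested, apart from what the smaller or larger set of peaks or genes brings by construction. At equal list lengths the log2 ratio of locus peaks minus that of all genes was 0.62 for WT IL-4 over WT untreated (-0.49 with all peaks) and 0.89 for KO untreated over WT untreated (-0.05 with all peaks). There 6 genes had an edge peak in WT untreated, and 10 locus peaks lacked a counterpart in each of these 2 comparisons (26 and 23 with all peaks). With scores of 100 or more, 1 gene had an edge peak in KO IL-4, 5 in KO untreated, 1 in WT IL-4 and 6 in WT untreated. These were 2.63%, 13.2%, 2.63% and 15.8% of the set, against 15.8%, 22.8%, 15.1% and 27.3% of all genes. The effector genes thus lay below the share of all genes in each library there. The log2 value of KO IL-4 over KO untreated was then -1.72 (-0.35 with all peaks). In the order KO IL-4 over KO untreated, WT IL-4 over WT untreated, KO untreated over WT untreated and KO IL-4 over WT IL-4, edge peaks differed at 4, 5, 1 and 2 genes (8, 12, 8 and 8 with all peaks). Lost genes were 10.5%, 13.2%, 2.63% and 2.63% of the set, against 8.04%, 12.5%, 6.25% and 3.13% of all genes. Gained genes were 0%, 0%, 0% and 2.63%, against 1.02%, 0.407%, 1.80% and 3.79% of all genes. In the same order, 10, 8, 3 and 3 locus peaks lacked a counterpart (19, 26, 23 and 12 with all peaks). That last count was 34, 51, 37 and 22 with loci of 50 kb and 9, 15, 15 and 7 in the spans alone. The share of the locus peaks of all genes that lacked a counterpart is given above, with all peaks only. With the start of the gene alone, 6 of 29 genes had an edge peak in WT IL-4 and 5 differed in KO IL-4 over KO untreated. Without the 10 genes that share a locus peak, 7 had an edge peak in KO IL-4, 7 differed in WT IL-4 over WT untreated and 5 in KO IL-4 over WT IL-4. Edges of 2.5 kb, reciprocal overlap and leaving out Mx2 left each of these counts within 1.5 times and each log2 value within its interval. Depth, which is unknown, limits every statement that a peak is missing.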
